A study of Mus musculus with 4 samples.

Results

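Oxysterols are oxidised forms of cholesterol that serve as signals inside and between cells. Of 10 genes listed for their synthesis, sensing and the export of cholesterol, 9 were represented in the array data described here, by 10 probe sets. Members were probe sets annotated with exactly the symbol of a listed gene. Where a gene had several, its probe set was selected on brightness, as the one with the largest average of the 4 arrays. Ch25h had 2 probe sets and both are given. Nr1h2, the other of the LXR genes, had no such probe set in the annotation, so its expression was not analysed here. Cyp7b1 lay below the intensity filter, so 8 of the 14652 genes tested were members of the list. The list was drawn up when results of these arrays, including a lower Ch25h, were already known. The differences below therefore describe these arrays and are no independent evidence for the choice of genes.

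The cells were dendritic cells grown from bone marrow of C57BL/6 mice and harvested on day 7 of culture. The sulforaphane group received 0.3 µM sulforaphane, an isothiocyanate that activates the transcription factor NRF2, in DMSO for 2 h, and the control group received DMSO alone for the same time. Both groups were then stimulated for 1 h with 100 ng/ml LPS, the bacterial ligand of TLR4, so no unstimulated cells enter any comparison. Each group had 2 arrays, and the labels do not say whether they came from separate mice or cultures, so the p-values measure a spread that may be technical.

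Ch25h adds a hydroxyl group to the side chain of cholesterol. Cyp7b1 hydroxylates the product at the ring, which gives the ligand of GPR183, a receptor that positions dendritic cells and B cells in lymphoid tissue, and Hsd3b7 degrades that ligand. Oxysterols also bind the nuclear receptors LXR alpha (Nr1h3) and LXR beta (Nr1h2), which pair with RXR and switch on Abca1 and Abcg1, exporters of cholesterol, Apoe, its carrier outside the cell, and Mylip, a ubiquitin ligase that removes the LDL receptor.

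Among the 8 genes tested, Ch25h had the largest difference, and it was the member that passed the test over all genes. The promoters of 3 genes are shown because the LXR targets Abca1 and Mylip differed in opposite directions and Ch25h fell. Each is the 250 bases before the transcription start in RefSeq, build GRCm38.p6, on the strand of the gene. Capitals mark a TATA box (TATAAA) or, in Abca1, also a loose LXR element, which was searched on both strands as GGTNA, any 5 bases and GGTNA. Ch25h lies at chr19:34475149-34475398 (minus strand), Abca1 at chr4:53159896-53160145 (minus strand) and Mylip at chr13:45389492-45389741 (plus strand).
Ch25h: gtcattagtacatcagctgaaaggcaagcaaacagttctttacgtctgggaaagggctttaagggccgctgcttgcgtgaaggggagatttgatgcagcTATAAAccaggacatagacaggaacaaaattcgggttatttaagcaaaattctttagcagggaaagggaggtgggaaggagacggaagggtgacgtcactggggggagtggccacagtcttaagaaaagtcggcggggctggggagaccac
Abca1: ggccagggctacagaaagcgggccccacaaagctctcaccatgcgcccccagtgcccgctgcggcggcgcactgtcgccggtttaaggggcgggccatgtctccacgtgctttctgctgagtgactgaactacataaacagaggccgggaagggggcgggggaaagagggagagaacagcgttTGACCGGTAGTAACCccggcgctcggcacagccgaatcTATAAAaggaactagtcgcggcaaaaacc
Mylip: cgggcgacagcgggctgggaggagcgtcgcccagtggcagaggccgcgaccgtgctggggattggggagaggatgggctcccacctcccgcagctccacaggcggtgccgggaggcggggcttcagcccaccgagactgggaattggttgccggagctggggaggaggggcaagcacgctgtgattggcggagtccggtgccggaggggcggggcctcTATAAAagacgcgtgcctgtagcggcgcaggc

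The loose LXR element of Abca1 lay 67 to 53 bases before the start, on the other strand. It was found in 0.718% of 32851 RefSeq promoters of the same length, 300 bases with the first 50 after the start. The letters of this element were chosen with the Abca1 promoter in mind. Neither the match in Abca1 nor its rarity is therefore an independent result. The table held promoters of 8 members, Nr1h2 among them and neither Abcg1 nor Cyp7b1. The element was found in 1 of these, so Mylip, Apoe and Nr1h3 held no match in this window. Sequence outside the window was not searched, and a link between the element and the differences was not tested. The TATA box lay 29 to 24 bases before the start of Abca1, 32 to 27 before that of Mylip and 151 to 146 before that of Ch25h. Apoe also held matches, 100 to 95 bases before a start on the other strand and 96 to 91 on the same strand. A TATA box was thus found in 4 of the 8 members, which had 11 promoters, and in 13.6% of all promoters. No promoter of a member held the letters searched for an interferon-stimulated response element (GAAA, any 2 bases, GAAA; 3.44% of promoters), an NF-kB site (GGG, any 2 bases, TTTCC; 1.63%), an AP-1 site (TGANTCA; 7.81%), a nuclear receptor half-site (AGGTCA; 16.3%), that half-site repeated after 4 bases (0.0152%) or a sterol regulatory element (0.0913%). The antioxidant response element core (TGACNNNGC; 12.4% of promoters) was matched in Gpr183, where the match crosses the start.

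Enzymes of oxysterol synthesis and breakdown came first in the comparison. Ch25h measured 9.36 and 9.18 on the log2 scale in the DMSO arrays and 7.60 and 7.83 in the sulforaphane arrays. The groups lay far apart next to the spread within each. Ch25h fell from 9.27 ± 0.13 (SD, n = 2) to 7.71 ± 0.17, a difference of -1.55 ± 0.14 SE (95% interval -1.89 to -1.22), or 2.94-fold lower (limma adjusted p = 0.0326). By size it ranked 5 among the 14652 genes in the lower direction. Past the same threshold were 0.13% of all genes, 19 in number, against 1 of the 8 members. Nothing is read from that comparison, since the list was made with Ch25h known to have passed. The call was lost without any single array: the adjusted p was 0.117 without DMSO replicate 1, 0.0816 without DMSO replicate 2, 0.183 without sulforaphane replicate 1 and 0.119 without sulforaphane replicate 2, with differences between -1.67 and -1.44. It was also lost with the replicate number as a block (0.0510).

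The other probe set of Ch25h measured 5.10 and 4.91 in DMSO and 4.33 and 4.53 after sulforaphane. These groups did not overlap either, and the arrays stood in the same order as with the first probe set. Its difference was -0.58 ± 0.13 SE, which did not pass when every probe set was tested (limma adjusted p = 0.179). The mean of both probe sets gave -1.07 ± 0.13 (adjusted p = 0.0546), so the size of the difference in Ch25h depended on the probe set. Where each probe set lies is not in the data, but the probe set IDs of this platform run along chromosome strands. For 95.8% of 17903 probe sets, the gene lay on the strand of most of its 20 nearest listed neighbours by ID. Ch25h lies on the minus strand. Of the neighbours with a known strand, 16 of 17 were minus-strand genes for the probe set with the highest mean, and 16 of 16 were plus-strand genes of chromosome 19 for the other. Whether the other probe set reads the Ch25h transcript was not tested.

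Cyp7b1 measured 2.54 and 2.59 in DMSO and 2.50 and 2.39 after sulforaphane. All 4 arrays lay below 2.91, the value of the filter, so the next step of the pathway was too dim for a test. Hsd3b7 measured 7.49 and 7.30 in DMSO and 7.37 and 7.60 after sulforaphane. It was the tested member whose groups overlapped, with a difference of 0.09 ± 0.14 SE (95% interval -0.24 to 0.42; limma adjusted p = 0.845). That interval does not reach the difference of Ch25h, though it still allows changes of either sign, and the difference ran from -0.025 to 0.20 with an array left out.

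**Figure D1:**
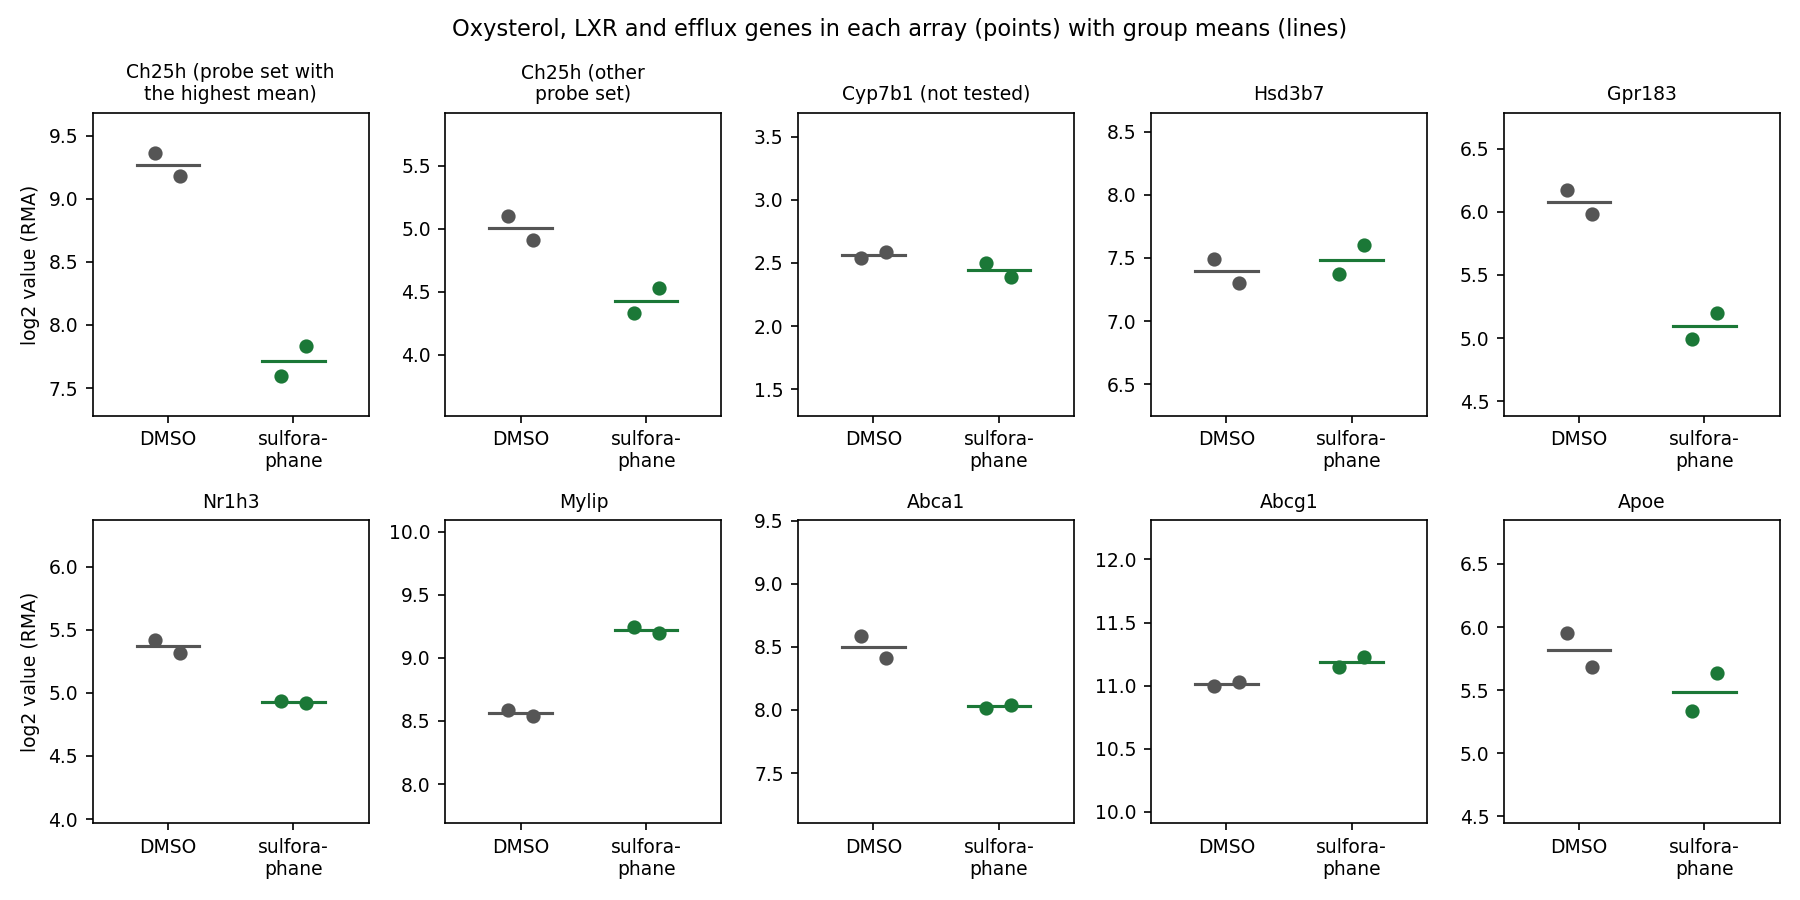
Log2 values (RMA) of the 10 probe sets in the DMSO arrays (grey) and the sulforaphane arrays (green), with replicate 1 on the left and replicate 2 on the right of each group and lines at the group means. Every panel spans the same height on the log2 scale; both probe sets of Ch25h are lower after sulforaphane, Gpr183 is lower from 6.08 to 5.10 and Mylip is higher from 8.56 to 9.22.

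Gpr183, the receptor of the ligand made by Ch25h and Cyp7b1, had the second lowest difference of the list. It measured 6.17 and 5.98 in DMSO and 4.99 and 5.20 after sulforaphane. All values of the sulforaphane group lay below those of the control group. The difference was -0.98 ± 0.13 SE (95% interval -1.30 to -0.66), or 1.97-fold lower, and its adjusted p of 0.0581 by limma missed the threshold. A difference this low or lower was seen in 0.253% of all genes. Gpr183 passed with a filter at the 60th percentile (limma adjusted p = 0.0322), with a second quantile normalization (0.0494) and with an intensity trend (0.0248). Those settings called 138, 106 and 249 of all genes, against 19 in the main fit. In the other settings Gpr183 did not pass, as without a filter (limma adjusted p = 0.0702) or with the replicate block (0.0938). With an array left out the difference ran from -1.09 to -0.88.

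Gpr183 and Ch25h also shared the order of their replicates. In both, DMSO replicate 1 lay above DMSO replicate 2, by 0.19 in each gene, and sulforaphane replicate 2 lay above sulforaphane replicate 1, by 0.21 in Gpr183 and 0.24 in Ch25h. Hsd3b7 and Apoe showed the same order. Steps of at least 0.15 in these directions were seen in 4 of the 8 members and in 5.71% of all genes tested, a pattern picked out after the values were seen. Steps of that size in the opposite directions were seen in 0 members and 6.98% of all genes.

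Nr1h3, which encodes LXR alpha, measured 5.42 and 5.32 in DMSO and 4.93 and 4.92 after sulforaphane. The groups were separate, with the sulforaphane arrays almost equal. The difference of -0.44 ± 0.11 SE (95% interval -0.71 to -0.18), or 1.36-fold lower, did not pass over all genes (limma adjusted p = 0.191). Its partners gave values near 0: Rxra differed by -0.02 ± 0.12 and Rxrb by 0.05 ± 0.17 (adjusted p = 0.974 and 0.942), and both signs turned with an array left out.

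The LXR targets in the list differed in both directions. Abca1, which loads cholesterol onto apolipoprotein A-I, measured 8.59 and 8.41 in DMSO and 8.02 and 8.04 after sulforaphane. The sulforaphane arrays were both lower, with a difference of -0.47 ± 0.12 SE (95% interval -0.76 to -0.19; limma adjusted p = 0.192). Mylip measured 8.59 and 8.54 in DMSO and 9.24 and 9.20 after sulforaphane. Here the sulforaphane arrays were both higher, by 0.66 ± 0.11 SE (95% interval 0.40 to 0.92), or 1.58-fold (limma adjusted p = 0.0864). A difference this high or higher was seen in 0.921% of all genes. Mylip passed with the filter at the 60th percentile (limma adjusted p = 0.0448) and with an intensity trend (0.0108). In the other settings Mylip did not pass, as without a filter (limma adjusted p = 0.116) or with the replicate block (0.144).

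Within each array, the value of Mylip minus that of Abca1 was 0.00 and 0.13 in DMSO and 1.23 and 1.15 after sulforaphane. The gap between these known targets of LXR was thus 1.13 larger on the log2 scale in the sulforaphane arrays. The pair was picked for its opposite signs after the values were seen, neither gene passed, and the gap was not tested.

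Abcg1, the exporter that passes cholesterol to HDL, measured 11.00 and 11.03 in DMSO and 11.15 and 11.23 after sulforaphane. The groups were separate but close, with a difference of 0.17 ± 0.11 SE (95% interval -0.09 to 0.44; limma adjusted p = 0.563). Apoe measured 5.96 and 5.68 in DMSO and 5.34 and 5.64 after sulforaphane. The lower DMSO array and the higher sulforaphane array nearly met, and the difference of -0.33 ± 0.16 (95% interval -0.72 to 0.05; limma adjusted p = 0.447) was -0.18 without sulforaphane replicate 1 and -0.48 without the other sulforaphane array.

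**Figure D2:**
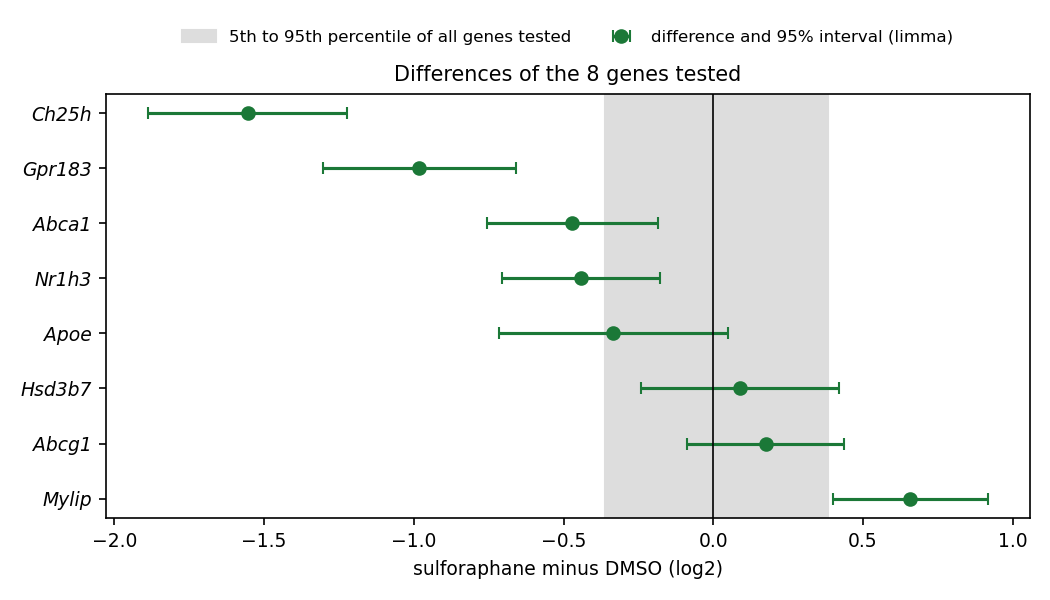
Difference between sulforaphane and DMSO arrays on the log2 scale for the 8 genes tested, with 95% intervals from limma (n = 2 per group). The grey band holds the middle of all 14652 genes, from the 5th percentile at -0.36 to the 95th at 0.38; Ch25h, Gpr183 and Mylip have intervals wholly outside it.

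In 7 of the 8 members tested the groups did not overlap, 5 lower and 2 higher. Groups were likewise apart in 43.6% of all genes, 19.5% lower and 24% higher. The median difference of the 8 members was -0.39, against 0.02 for all genes. An unadjusted p under 0.05 was reached by 5 members, Ch25h, Gpr183, Mylip, Nr1h3 and Abca1, and by 13% of all genes. As the members were listed with results in view, these shares are descriptions.

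The wider pathway was taken from lists of other genes drawn up by function. Of 20 other LXR targets 13 were tested, and limma called 0 higher and 0 lower, with 2 at an unadjusted p under 0.05. Their median was -0.03, with 5 above 0 and 8 below. Rgcc, a regulator of the cell cycle, differed by -0.55 ± 0.19 SE and Mertk, a receptor for apoptotic cells that the macrophage list below also holds, by -0.39 ± 0.12 (adjusted p = 0.325 and 0.258). Cd5l, a secreted scavenger protein of macrophages, differed by 0.30 ± 0.13 (adjusted p = 0.403). The DMSO mean of Cd5l, 2.88, lay below the filter value of 2.91, and its sulforaphane mean was 3.18. Cd5l was therefore tested only through the sulforaphane arrays. With an array left out, Rgcc was -0.29 without sulforaphane replicate 1 and -0.81 without the other sulforaphane array, and Cd5l ran from 0.20 without DMSO replicate 1 to 0.40 without DMSO replicate 2. Of the lipogenic targets, named after their values were seen, Scd1 differed by 0.39 ± 0.23 SE (limma adjusted p = 0.544), the highest value of this list. Its groups overlapped, with 4.89 and 5.59 in DMSO and 5.55 and 5.71 after sulforaphane. Srebf1 differed by -0.06 and Fasn by 0.00.

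Other enzymes that make or modify oxysterols gave 0 calls by limma among 10 tested of 14 listed, with 2 at an unadjusted p under 0.05 and a median of 0.01. Cyp27a1, the mitochondrial sterol hydroxylase, measured 5.96 ± 0.26 (SD, n = 2) in DMSO and 6.35 ± 0.06 after sulforaphane. Its difference of 0.38 ± 0.15 SE (limma adjusted p = 0.370) went from 0.20 without DMSO replicate 1 to 0.57 without DMSO replicate 2. Ephx1, an epoxide hydrolase also known as an NRF2 target, differed by 0.35 ± 0.11 and Cyp11a1, the side-chain cleavage enzyme, by -0.26 ± 0.13 (adjusted p = 0.287 and 0.480), and Cyp11a1 was -0.13 without DMSO replicate 1 and -0.39 without DMSO replicate 2.

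Partners and cofactors of LXR differed over a narrow range. Of 12 tested, limma called 0, with 0 at an unadjusted p under 0.05, and differences ran from -0.06 to 0.24 (median 0.03). Those with the smallest p were Pias1, a SUMO ligase, at 0.24 ± 0.12 SE, the coactivator Ncoa3 at 0.10 ± 0.10 and the orphan receptor Nr0b2 at 0.15 ± 0.21 (adjusted p = 0.481, 0.757 and 0.835), and without sulforaphane replicate 2 Nr0b2 turned to -0.13 and Pias1 was 0.35, against 0.13 for Pias1 without sulforaphane replicate 1.

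Of 15 oxysterol-binding and INSIG proteins tested, limma called 0, with 3 at an unadjusted p under 0.05 and a median of 0.14. The lipid transfer proteins Osbpl2 and Osbpl11 differed by 0.46 ± 0.14 SE and 0.28 ± 0.11 (adjusted p = 0.267 and 0.360), while Osbpl3 differed by -0.43 ± 0.13 (0.258). The value of Osbpl2 was 0.29 without DMSO replicate 1.

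Genes of cholesterol traffic and esterification gave 0 calls by limma among 18 tested of 20 listed, with 4 at an unadjusted p under 0.05 and a median of 0.05. Soat1 and Soat2, the cholesterol-esterifying enzymes of this list, had no probe set with exactly that symbol and were not measured here. Abcg4, a close relative of Abcg1, measured 4.54 and 4.86 in DMSO and 3.69 and 3.51 after sulforaphane, with no overlap. Its difference was -1.10 ± 0.15 SE (95% interval -1.46 to -0.74; limma adjusted p = 0.0581). Abcg4 passed with the filter at the 60th percentile (limma adjusted p = 0.0324), a second quantile normalization (0.0300) and an intensity trend (0.0255). In the other settings Abcg4 did not pass, as without a filter (limma adjusted p = 0.0702) or with the replicate block (0.0924). Abcg1 and Abcg4 thus had differences of opposite sign, of which neither passed. Star, which carries cholesterol into mitochondria, differed by 0.46 ± 0.11 and Lipa, the lysosomal acid lipase encoded next to Ch25h, by 0.35 ± 0.11 (adjusted p = 0.191 and 0.261).

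**Figure D3:**
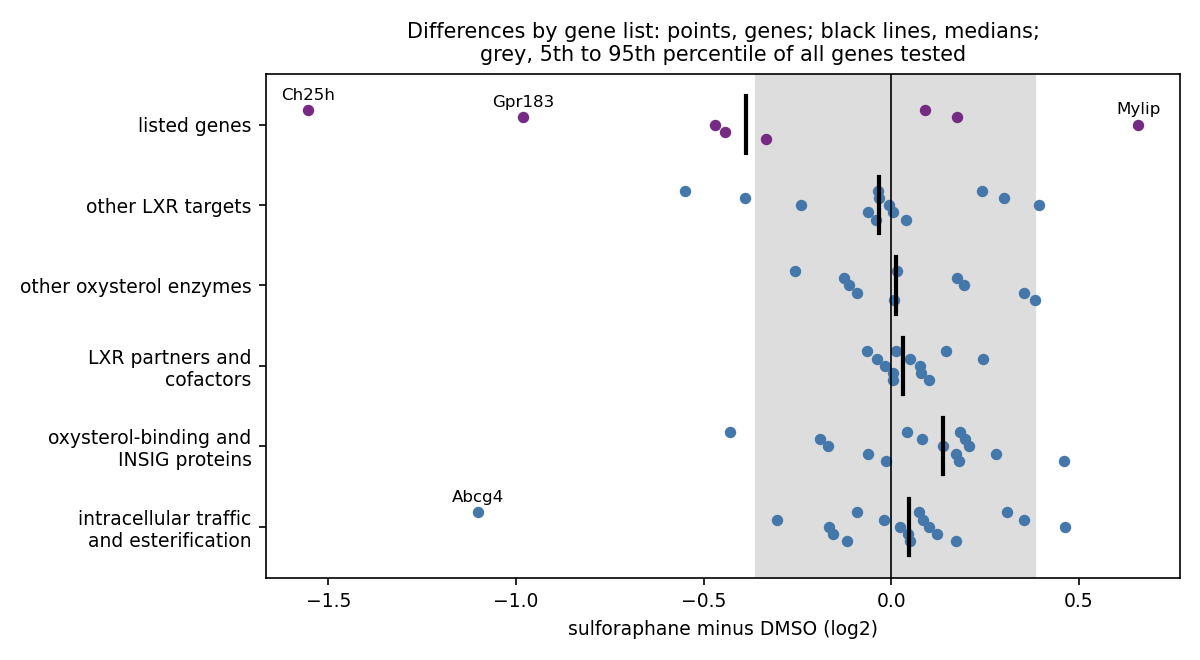
Differences between sulforaphane and DMSO arrays (log2) of every tested gene in the list described and in 5 lists of related genes, one point per gene, with black lines at the list medians and a grey band from the 5th to the 95th percentile of all genes. The medians of the related lists lie between -0.03 and 0.14, and Abcg4 at -1.10 stands alone among their points beyond -0.6.

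The 5 genes whose array values, each centred on its own mean, lay nearest to those of Ch25h over the 4 arrays were Ifnlr1, Tnfsf15, Ltb, Usp18 and Nr4a1. Euclidean distances ran from 0.15 for Ifnlr1, a receptor chain for interferon lambda, to 0.26 for Nr4a1. Their differences lay between -1.62 (Tnfsf15, a TNF superfamily ligand) and -1.47 (Nr4a1, an orphan nuclear receptor). With 4 arrays in 2 groups, such likeness mostly restates a difference of similar size.

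Over all arrays, medians lay between 3.24 and 3.27, and the interquartile range was 3.41 in DMSO replicate 1 against 3.61 to 3.62 in the others. Of 8 NRF2 targets tested as a check of the treatment, all lay above 0 without overlap (median 0.80), against 24% of all genes apart in that direction. Limma called 1 of the 8, Osgin1, which rose by 1.57 ± 0.13 SE (adjusted p = 0.0322). The others did not pass, with Hmox1 and Nqo1 nearest to the threshold (limma adjusted p = 0.0510 and 0.0597). Among dendritic cell markers, Itgax lay between 11.26 and 11.33 and H2-Ab1 between 11.37 and 11.81, while Zbtb46 lay between 5.95 and 6.44 and Flt3 between 4.34 and 4.95. The transcription factor Irf4 differed by -0.87, Batf3 by -0.64, Kmo by -0.45, Flt3 by -0.42 and Zbtb46 by -0.34, of which none passed, and H2-Ab1 by 0.26. The mean log2 level of the 11 tested markers was 8.66 and 8.75 in DMSO and 8.46 and 8.54 after sulforaphane, with 5 above 0 and 6 below and 0 called by limma (5 at an unadjusted p under 0.05). Markers of macrophages and monocytes, cells that also make Ch25h and Apoe, had a mean of 8.59 and 8.65 in DMSO and 8.41 and 8.46 after sulforaphane over 13 tested of 15 listed, 11 of them below 0 and 0 called by limma (3 at an unadjusted p under 0.05). B cell markers, whose cells carry Gpr183, had a mean of 3.66 and 3.70 in DMSO and 3.16 and 3.60 after sulforaphane over 4 tested of 8 listed. These means lay near the array medians. All 4 were below 0, and 2, Cd79a and Blk, had an unadjusted p under 0.05. Blk had a sulforaphane mean of 2.89, below the filter value of 2.91, so it was tested only through the DMSO arrays. Cr2, Ebf1 and Ms4a1 lay below the filter. Markers of mast cells and basophils had means of 6.63 and 6.57 in DMSO and 6.33 and 6.45 after sulforaphane, with 7 of 8 tested below 0 and 2 at an unadjusted p under 0.05, Hdc (-0.61) and Gata2 (-0.57). The others differed by 0.01 (Cpa3), -0.01 (Kit), -0.05 (Fcer1a), -0.07 (Mcpt8), -0.11 (Ms4a2) and -0.27 (Tpsab1). The sulforaphane mean of Tpsab1, 2.80, lay below the filter value of 2.91. Markers of neutrophils and granulocytes had means of 9.33 and 9.57 against 9.54 and 9.45, with 9 of 11 above 0 and a median difference of 0.05. The 1 marker at an unadjusted p under 0.05 was lower, Cebpe at -0.40. The part of these cells in the differences of Ch25h, Gpr183 and Apoe was not tested, and in bulk RNA fewer cells of a type and less RNA per cell cannot be told apart.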

How the data were processed

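Biotinylated cRNA from 100 ng total RNA was run on Affymetrix arrays, per the labels' protocols. The authors deposited log2 values; the submitters' processing notes name RMA and R 2.15.1. RMA corrects background, quantile-normalizes the arrays and combines the probes of a probe set. No header states the log base, which was taken as 2 because of RMA and the size of the values, and all folds depend on it. The table held 41345 probe sets, of which 23521 had exactly 1 symbol in the platform annotation, 1814 had several and 16010 were not listed.

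Tested genes had a mean over 2.91, the 40th percentile across probe sets. Differences were fitted with limma 3.58.1 (lmFit, eBayes) in R 4.3.3 over 2 against 2 arrays without a block and adjusted by Benjamini-Hochberg over 14652 genes at 0.05. Errors are moderated standard errors (SE). The replicate numbers were not used to pair the arrays in this fit. Deviations of same-numbered arrays correlated at -0.08 over genes. With 2 arrays per group this cannot settle whether same-numbered arrays were prepared together. The procedure was tested on simulated data. The members and lists were chosen with earlier results of these data known, and the loose LXR element with the Abca1 promoter in mind. Named were all members, up to 3 genes per related list by smallest p, Cyp27a1, Rxra and Rxrb, and the 5 genes nearest to Ch25h. Other settings were another filter or none, other scalings, other uses of probe sets, a replicate block, an intensity trend or robust estimation, and each array left out. The number of arrays limits the precision.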

Additional observations from a re-analysis of the deposited data

How the results depend on the processing

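The number of genes called by limma, 19 (9 higher, 10 lower), depended on the settings: it was 138 with the filter at the 60th percentile, 106 (34 higher, 72 lower) with a second quantile normalization, 34 with the mean of probe sets, 249 with an intensity trend and 8 with the replicate block. It was 0 with any array left out, when 1036 to 2850 genes had an unadjusted p under 0.05. Of the members, 1 was called, against 3 with the filter at the 60th percentile, 2 with the second quantile normalization, 3 with the intensity trend, 0 with the mean of probe sets, 0 with the replicate block and 0 with any array left out, when 5 or 6 had an unadjusted p under 0.05. The causes were not tested, except that an array left out takes away residual degrees of freedom. The count of members without overlap was 7 to 8 with an array left out, when 68% to 78.4% of all genes did not overlap.

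The differences of Ch25h, Gpr183, Nr1h3, Mylip, Abca1, Abcg1 and Apoe kept their sign in every setting run. Hsd3b7 ran from -0.025 to 0.20 with an array left out, Nr0b2 from -0.13 to 0.42, Rxra from -0.10 to 0.065 and Rxrb from -0.15 to 0.26, and Rxra was 0.0029 with median centring. The replicate block changed the call of Ch25h (adjusted p = 0.0510) and of no other member.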
